A study of Arabidopsis thaliana with 24 samples.

Results

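The 10 genes described here encode enzymes that reduce quinones or α,β-unsaturated carbonyl compounds (enones). They were taken by AGI code from a table of 33602 Arabidopsis thaliana genes. The codes are those of FQR1 (AT5G54500), AT4G27270, AT5G58800, AT4G36750, NQR (AT3G27890), AT4G13010, AOR (AT1G23740), AER (AT5G16970), OPR1 (AT1G76680) and OPR2 (AT1G76690). The list of codes uses no measured value, but it was drawn up with earlier results of these data known. All 10 genes passed the filter on low counts. RNA was sequenced from whole seedlings, 7 days old and kept in liquid culture, of 3 genotypes in the Col-0 ecotype. The genotypes were the mutants card1-1 and card1-2 and the line they were made in, which expresses the calcium reporter aequorin and is called WT here, so all 3 carry the reporter. Each genotype received 5 µM DMBQ (2,6-dimethoxy-1,4-benzoquinone) or DMSO as a mock treatment for 10 min, which gives 6 groups of 4 libraries. The groups are card1-1 with DMBQ, card1-1 mock, card1-2 with DMBQ, card1-2 mock, WT with DMBQ and WT mock. The labels give neither the lesions of the alleles nor the origin of the replicates, so p-values measure the spread between libraries, part of which may be technical.

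DMBQ is a quinone derived from lignin phenolics and is known as a host signal that induces haustoria in parasitic plants. CARD1 is a leucine-rich repeat receptor kinase needed for the calcium response to quinones in Arabidopsis. Quinones can cycle between oxidation states and generate reactive oxygen, or bind covalently to thiols, and enones share the second property. Flavodoxin-like quinone reductases and NQR transfer a pair of electrons from NAD(P)H and form the hydroquinone without a free semiquinone. Zeta-crystallin type enzymes and 12-oxophytodienoate reductases (OPRs) reduce the double bond or the quinone ring with NADPH, and a zeta-crystallin type enzyme takes part in haustorium formation in the parasite Triphysaria.

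The libraries held 2048246 to 9000207 counts in genes. Alignments to several places in the genome (the multi-mapping share, from the tallies of the table) made up 48.3% to 66.5% of records in card1-1 with DMBQ and 17.3% to 32.3% in card1-1 mock, 31.9% to 61.1% in card1-2 with DMBQ and 33.6% to 41.2% in card1-2 mock, and 29.7% to 41.8% in WT with DMBQ and 21.3% to 29.0% in WT mock. Replicate 2 of card1-2 with DMBQ stood apart, with 9000207 counts and the largest share outside any feature, 3.10%. Between replicates, the chi-square per degree of freedom of the counts was 26.5 to 29.2 for pairs with this library and 9.83 to 12.3 for the other pairs of its group. Replicate 1 of card1-1 mock stood apart in the same way, at 23.6 to 27.3, against 5.45 to 8.00 for the other pairs of card1-1 mock. Shoot markers summed to 14046 to 23101 CPM (normalised read counts, scaled to a common library total) and root markers to 1015 to 1844 CPM across groups. Root markers summed to 1015 to 1315 CPM in card1-2 with DMBQ, 1545 to 1831 CPM in card1-2 mock and 1314 to 1348 CPM in WT mock. Shoot markers summed to 19367 to 23101 CPM in card1-1 with DMBQ, above WT with DMBQ at 17005 to 19048 CPM. In the other comparisons of DMBQ with mock, or of a mutant with WT, these sums overlapped. The part of these differences in the values below was not tested. Markers of dry seed summed to at most 25.8 CPM, a value reached in card1-1 with DMBQ. The CARD1 transcript (AT5G49760) averaged 54.1 ± 6.03 CPM in card1-1 mock, 52.8 ± 12.7 CPM in card1-2 mock and 71.5 ± 5.41 CPM in WT mock (SD, n = 4). Its log2 difference from WT in mock was -0.40 in card1-1 and -0.44 in card1-2, with unadjusted edgeR p-values of 0.0463 and 0.0321. Neither passed edgeR's test after adjustment over all genes, with an adjusted p of 1.00 for each. The card1-1 mock libraries (48.6 to 60.6 CPM) lay below those of WT mock (64.7 to 77.6 CPM). Those of card1-2 mock (44.7 to 71.7 CPM) overlapped WT mock. The share of all genes that separate in mock is not given here. With DMBQ, the CARD1 values of card1-1 (55.1 to 92.8 CPM) and card1-2 (42.7 to 84.3 CPM) overlapped those of WT (77.2 to 93.1 CPM). Whole seedlings mix cell types, and in such samples fewer cells of a type and less RNA per cell cannot be told apart.

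The 10 genes fall into 5 groups by enzyme type. FQR1 (flavodoxin-like quinone reductase 1) lies on chromosome 5 at 22124390 to 22126618 on the plus strand, with 4 exons in its longest transcript (TAIR10.1 coordinates, as for all positions here). Its closest relative AT4G27270 lies on chromosome 4 at 13661201 to 13663371 on the minus strand, with 84.6% identity over the aligned coding sequence. The further relatives AT5G58800 (chromosome 5, 23745883 to 23747274, minus strand) and AT4G36750 (chromosome 4, 17324519 to 17326533, plus strand) each had 66.6% identity to FQR1. NQR, a flavoprotein of another sequence family, lies on chromosome 3 at 10350595 to 10352033 on the minus strand. AT4G13010 (chromosome 4, 7600510 to 7602754, plus strand) and AOR (chromosome 1, 8398115 to 8399836, minus strand) encode chloroplast enzymes of the zeta-crystallin type. AER, an alkenal reductase, lies on chromosome 5 at 5575973 to 5578086 on the minus strand, inside a cluster of homologues. OPR1 and OPR2 stand in tandem on the plus strand of chromosome 1, at 28776626 to 28778837 and 28778622 to 28780483, and their annotated exons overlap by 216 bases.

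How far reads can be assigned to 1 member depends on how alike the copies are, so 90 aligned bases near the start of the coding sequence are shown for 3 pairs of like copies, read 5′ to 3′ from the TAIR10.1 genome (NCBI RefSeq copy). The stretches begin at coding base 1, except at base 4 in AT5G16980 and at base 7 in OPR2. Capitals mark the bases at which the members of a pair differ. The first pair is FQR1 and AT4G27270, the second AER and its neighbour AT5G16980, the third OPR1 and OPR2.
FQR1: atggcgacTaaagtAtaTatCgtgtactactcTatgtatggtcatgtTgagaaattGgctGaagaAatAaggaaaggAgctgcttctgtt
AT4G27270: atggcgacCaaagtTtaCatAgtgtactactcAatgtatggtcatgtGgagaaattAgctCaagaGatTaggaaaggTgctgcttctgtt
AER: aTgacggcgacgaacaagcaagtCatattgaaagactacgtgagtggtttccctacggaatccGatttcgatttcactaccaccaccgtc
AT5G16980: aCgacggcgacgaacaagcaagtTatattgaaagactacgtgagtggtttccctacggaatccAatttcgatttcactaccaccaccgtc
OPR1: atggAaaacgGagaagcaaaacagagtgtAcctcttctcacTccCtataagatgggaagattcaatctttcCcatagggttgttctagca
OPR2: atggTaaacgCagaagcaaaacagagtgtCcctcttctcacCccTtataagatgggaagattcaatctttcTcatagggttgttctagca
FQR1 and AT4G27270 differ at 11 of these 90 bases, AER and AT5G16980 at 3, and OPR1 and OPR2 at 6. No window of 50 bases in the exons of FQR1, AT4G27270, AT5G58800, AT4G36750, NQR, AT4G13010 or AOR occurred anywhere else in the genome. In AER, 140 of 1196 such windows (11.7%) occurred elsewhere, and the share was 4.21% in OPR1 and 5.81% in OPR2. By this measure alone, the assignment of reads to AER, OPR1 and OPR2 is less certain than that to the other 7 genes. Whether the counting used strand is not given in the sources used here. AOR shares 273 exonic bases with BCA3, AT5G58800 shares 99 with AT5G58790 and OPR2 shares 76 with AT1G76700, each on the opposite strand, and reads from these stretches cannot be told apart if strand was not used.

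The level of OPR1 varied with those of AER and FQR1 across libraries, as given further on, so the 250 bases before each of these gene starts are shown from the same RefSeq genome. The windows are chr1:28776376-28776625 (plus strand) for OPR1, chr5:5578087-5578336 (minus strand) for AER and chr5:22124140-22124389 (plus strand) for FQR1. Capitals mark matches to TGACG, the core of the element that TGA transcription factors bind, searched on both strands, so that its reverse complement CGTCA counts as well.
OPR1: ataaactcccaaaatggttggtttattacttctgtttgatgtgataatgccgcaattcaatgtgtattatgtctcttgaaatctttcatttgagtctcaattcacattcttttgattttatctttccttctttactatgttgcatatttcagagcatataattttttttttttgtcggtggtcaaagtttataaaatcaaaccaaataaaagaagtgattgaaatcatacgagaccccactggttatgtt
AER: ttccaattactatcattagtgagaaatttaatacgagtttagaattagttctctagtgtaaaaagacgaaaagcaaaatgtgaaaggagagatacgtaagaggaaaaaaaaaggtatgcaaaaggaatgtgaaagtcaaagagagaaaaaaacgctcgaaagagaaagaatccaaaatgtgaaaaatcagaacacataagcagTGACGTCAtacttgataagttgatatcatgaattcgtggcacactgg
FQR1: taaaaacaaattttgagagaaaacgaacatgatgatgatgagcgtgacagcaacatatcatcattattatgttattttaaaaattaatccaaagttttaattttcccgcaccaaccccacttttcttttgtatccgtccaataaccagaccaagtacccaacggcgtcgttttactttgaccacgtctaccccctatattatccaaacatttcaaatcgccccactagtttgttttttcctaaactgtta
The AER window held a pair of overlapping matches, 1 on each strand, that begin 47 and 44 bases before the annotated start and form TGACGTCA. Among the other members, AT5G58800 and AT4G13010 held 1 match each, and OPR1, FQR1 and the remaining 5 held 0. The motif occurred in 5096 of 27431 windows of this length before annotated protein-coding genes of the nuclear chromosomes, which is 18.6%. A match only describes these letters.

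Per kilobase of exon, the members spanned a wide range of levels. Mean levels over the 24 libraries were 128.1 CPM per kb for AOR, 80.3 for FQR1, 42.5 for AT4G13010, 38.1 for OPR1, 38.0 for AER, 28.2 for AT4G36750, 21.9 for AT5G58800, 21.2 for NQR, 5.61 for OPR2 and 2.66 for AT4G27270. Lowest and highest libraries of neighbours in this order overlapped, from AOR (99.7 to 173 CPM per kb) and FQR1 (47.3 to 123) down to OPR2 (2.099 to 12.5) and AT4G27270 (0.579 to 8.54). The labels do not say whether libraries covered whole transcripts or 3′ ends, and in 3′ libraries a level per kilobase understates long genes. In CPM, the highest library exceeded the lowest by 14.5-fold for OPR1 and 14.8-fold for AT4G27270, but by 1.74-fold for AOR and 1.88-fold for AT4G13010.

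**Figure D1:**
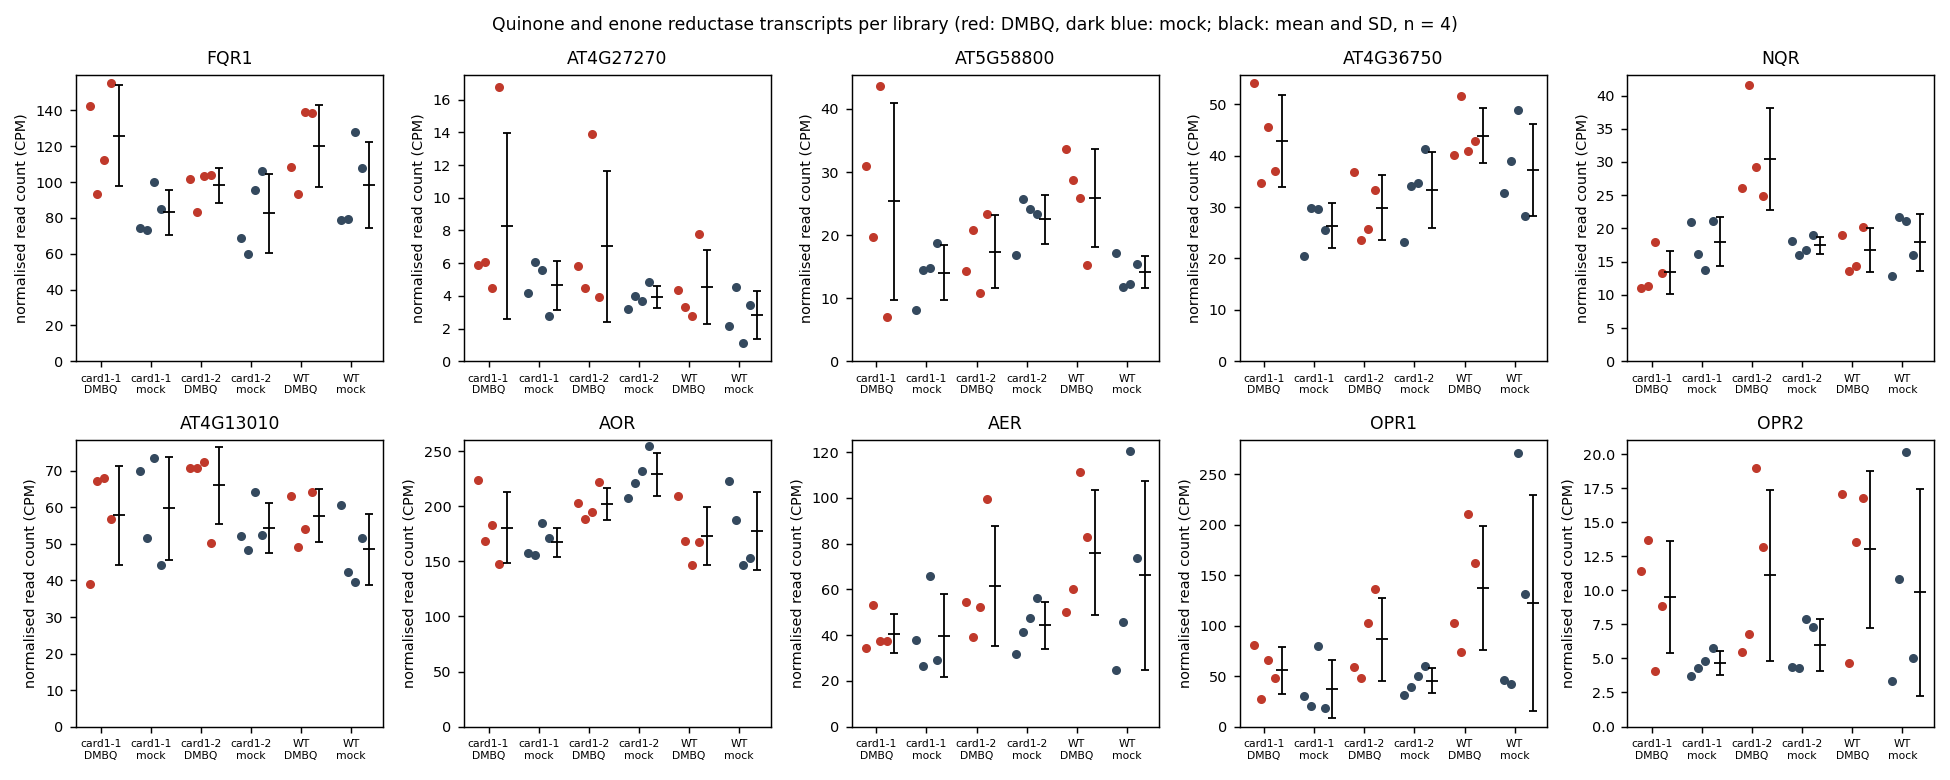
Normalised read counts (CPM, linear axes from 0) of the 10 genes in each of the 24 libraries, in 6 groups of 4. Points are libraries in order of replicate number, red for DMBQ and dark blue for mock, and black bars give mean and SD. FQR1 lies between 59.6 and 155 CPM, OPR1 between 18.7 and 271 CPM.

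The first question is whether transcripts of enzymes that act on quinones or enones changed within 10 min of DMBQ. None of the 10 passed edgeR's quasi-likelihood test with Benjamini-Hochberg adjustment over the 17734 genes tested, in any genotype. In card1-1, 8 of the 10 estimates were above 0 with a median log2 fold change of 0.60, against -0.0045 for all genes tested. There 4 had an unadjusted p under 0.05 (FQR1, AT4G36750, AT5G58800 and OPR2), and the smallest adjusted p was 0.05002. The share of all genes with an unadjusted p under 0.05 was not counted in any comparison. Counts of members under it, here and below, therefore only describe and cannot be judged against all genes. In card1-1, DESeq2 called 2 (and 8.67% of all genes) and limma voom 0, while edgeR called 6.7% of all genes. That 6.7% is 629 genes that rose and 560 that fell, and it varied with the fit, with 334 and 282 without card1-1 mock replicate 1, 182 and 106 with the 2 groups alone, and 89 and 30 with the multi-mapping share as a covariate. In card1-2, 7 were above 0 with a median of 0.38, against 0.02 for all genes. One gene, NQR, had an unadjusted p under 0.05 there, DESeq2 called 1 (and 3.51% of all genes), limma voom 0, and edgeR called 2.2% of all genes. In WT, 8 were above 0 with a median of 0.24, against -0.01 for all genes, and 1 (AT5G58800) had an unadjusted p under 0.05. DESeq2 and limma voom called 0 in WT, and edgeR called 1.03% of all genes.

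**Figure D2:**
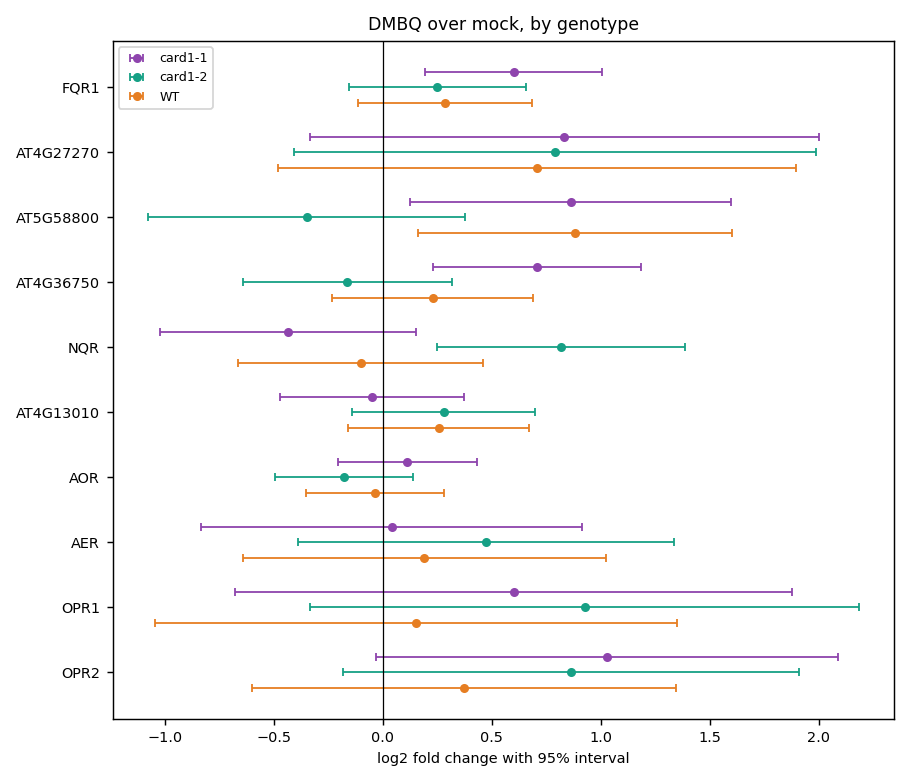
Log2 fold change of DMBQ over mock with its 95% interval for the 10 genes in card1-1, card1-2 and WT, from edgeR's fit over 24 libraries. In card1-1 the intervals of FQR1, AT5G58800 and AT4G36750 lie above 0, in card1-2 that of NQR and in WT that of AT5G58800, but no estimate passed adjustment over all genes.

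FQR1 is known as an early auxin-responsive gene, and its product reduces quinones with NAD(P)H. It had 142, 93.1, 113 and 155 CPM in card1-1 with DMBQ, against 74.4, 73.1, 100.1 and 84.95 CPM in card1-1 mock. Its 4 values with DMBQ were above 3 of the 4 mock values, and replicate 2 with DMBQ lay below replicate 3 of mock. The log2 fold change was 0.60 (SE 0.19, 95% interval 0.19 to 1.00) with an edgeR adjusted p of 0.0503, just above the threshold of 0.05, while DESeq2 gave an adjusted p of 0.0403. It had 101, 83.4, 103 and 104 CPM in card1-2 with DMBQ, against 68.5, 59.6, 95.7 and 106 CPM in card1-2 mock, and 108, 93.1, 139 and 139 CPM in WT with DMBQ, against 78.6, 79.5, 128 and 108 CPM in WT mock. The groups overlapped in both genotypes. The log2 fold change was 0.25 (95% interval -0.16 to 0.66) in card1-2 and 0.28 (-0.12 to 0.68) in WT. The response in card1-1 minus that in WT was 0.32 (-0.25 to 0.89), with an edgeR adjusted p of 0.801. Group means ran from 126 CPM in card1-1 with DMBQ through WT with DMBQ, WT mock, card1-2 with DMBQ and card1-1 mock to 82.5 CPM in card1-2 mock, and each group overlapped its neighbours in this order.

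The card1-1 value of FQR1 was lower once multi-mapping entered. Without the 3 libraries with a multi-mapping share above 55%, of which 2 were of card1-1 with DMBQ, it was 0.30 with an edgeR adjusted p of 0.474. With that share as a covariate it was 0.27, with an adjusted p of 0.819. The share separates the groups of card1-1 in full, and its part in the result was not tested beyond these fits. It also separates WT with DMBQ from WT mock, card1-1 with DMBQ from WT with DMBQ, and card1-2 mock from WT mock. Its part in those comparisons was not tested beyond the calls of the covariate fit.

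AT4G36750 encodes a further member of the flavodoxin-like family. It had 54.1, 34.7, 45.7 and 37.0 CPM in card1-1 with DMBQ, against 20.5, 29.7, 29.7 and 25.6 CPM in card1-1 mock. All 4 values with DMBQ were above all 4 mock values, which held for 1 of the 10 genes in card1-1, against 4.86% of all genes. The log2 fold change was 0.71 (SE 0.23, 95% interval 0.23 to 1.19), with an edgeR adjusted p of 0.05002, just above the threshold, while DESeq2 gave an adjusted p of 0.0251. It had 36.9, 23.5, 25.7 and 33.3 CPM in card1-2 with DMBQ, against 23.2, 34.1, 34.7 and 41.3 CPM in card1-2 mock. It had 40.1, 51.7, 41.0 and 42.8 CPM in WT with DMBQ, against 32.8, 39.0, 49.0 and 28.3 CPM in WT mock. Those groups overlapped, with log2 fold changes of -0.16 (95% interval -0.64 to 0.32) in card1-2 and 0.23 (-0.23 to 0.69) in WT. The card1-1 value was 0.61 (adjusted p 0.1825) without the libraries above 55% multi-mapping, and 0.27 (adjusted p 0.857) with that share as a covariate. The response in card1-1 minus that in WT was 0.48 (-0.18 to 1.14), with an edgeR adjusted p of 0.695. In mock, the log2 difference of card1-1 from WT was -0.51 (95% interval -0.98 to -0.04, edgeR unadjusted p 0.0271), not called after adjustment. With DMBQ that difference was -0.03, so the card1-1 response started from a lower mock estimate.

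AT5G58800, of the same family, had 30.9, 19.8, 43.6 and 7.05 CPM in card1-1 with DMBQ, against 8.14, 14.4, 14.8 and 18.7 CPM in card1-1 mock. In card1-1 with DMBQ, replicate 4 was below all 4 mock libraries and the other 3 were above all of them. It had 14.4, 20.9, 10.8 and 23.4 CPM in card1-2 with DMBQ, against 16.8, 25.8, 24.1 and 23.3 CPM in card1-2 mock. It had 33.6, 28.7, 25.9 and 15.3 CPM in WT with DMBQ, against 17.1, 11.8, 12.2 and 15.4 CPM in WT mock, where again 3 of the 4 treated libraries were above all mock libraries. The log2 fold change was 0.86 in card1-1 (95% interval 0.13 to 1.60), -0.35 in card1-2 (-1.08 to 0.38) and 0.88 in WT (0.16 to 1.60). The edgeR adjusted p-values were 0.140, 0.721 and 0.531 in that order. The response in card1-2 minus that in WT was -1.23 (95% interval -2.26 to -0.21), with an unadjusted p of 0.0153 and an edgeR adjusted p of 0.508. Replicate 4 of card1-1 with DMBQ had the highest multi-mapping share, 66.5%. Without it the card1-1 value was 1.17 with an edgeR adjusted p of 0.0216, and without replicate 3 it was 0.48 with an edgeR adjusted p of 0.493.

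AT4G27270, the close copy of FQR1, was counted with 7 to 38 reads per library. It had 5.89, 6.05, 4.49 and 16.8 CPM in card1-1 with DMBQ, against 4.19, 6.07, 5.56 and 2.75 CPM in card1-1 mock. It had 5.83, 4.48, 13.9 and 3.90 CPM in card1-2 with DMBQ, against 3.21, 4.01, 3.66 and 4.86 CPM in card1-2 mock, and 4.34, 3.32, 2.78 and 7.81 CPM in WT with DMBQ, against 2.168, 4.52, 1.14 and 3.46 CPM in WT mock. In card1-2, 2 libraries with DMBQ (13.9 and 5.83 CPM) were above all 4 mock libraries. In card1-1 and in WT, 1 library with DMBQ was above all mock libraries of its genotype. The log2 fold changes were 0.83 in card1-1, 0.79 in card1-2 and 0.71 in WT, with 95% intervals of -0.34 to 2.00, -0.41 to 1.99 and -0.48 to 1.90. Without the highest library the values were 0.25 in card1-1 (without replicate 4) and 0.26 in card1-2 (without replicate 3).

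NQR encodes an NAD(P)H:quinone reductase that accepts a range of quinones in vitro. It had 26.0, 41.6, 29.3 and 24.9 CPM in card1-2 with DMBQ, against 18.03, 16.1, 16.8 and 18.9 CPM in card1-2 mock. All 4 values with DMBQ were above all mock values, which held for 1 of the 10 genes in card1-2, against 4.07% of all genes. It had 11.1, 11.3, 17.9 and 13.2 CPM in card1-1 with DMBQ, against 20.9, 16.2, 13.7 and 21.2 CPM in card1-1 mock, and 19.0, 13.5, 14.3 and 20.3 CPM in WT with DMBQ, against 12.8, 21.8, 21.1 and 16.0 CPM in WT mock. In card1-1 and in WT the groups overlapped. The log2 fold change was 0.82 in card1-2 (SE 0.27, 95% interval 0.25 to 1.39), -0.44 in card1-1 (-1.02 to 0.15) and -0.10 in WT (-0.67 to 0.46). The edgeR adjusted p in card1-2 was 0.111, and DESeq2 gave an adjusted p of 0.0351. Replicate 2 with DMBQ, the deepest library, was the highest, and without it the card1-2 value was 0.62 with an edgeR adjusted p of 0.343. The response in card1-2 minus that in WT was 0.92 (95% interval 0.12 to 1.72), with an unadjusted p of 0.0203 and an edgeR adjusted p of 0.548.

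The chloroplast enzymes of the zeta-crystallin type varied least. AT4G13010, an envelope protein, had 39.0, 67.3, 68.1 and 56.9 CPM in card1-1 with DMBQ, against 70.0, 51.7, 73.4 and 44.3 CPM in card1-1 mock. It had 70.7, 70.8, 72.4 and 50.1 CPM in card1-2 with DMBQ, against 52.1, 48.5, 64.3 and 52.4 CPM in card1-2 mock, and 63.2, 49.2, 54.1 and 64.2 CPM in WT with DMBQ, against 60.7, 42.3, 39.5 and 51.6 CPM in WT mock. The groups overlapped in each genotype, and the log2 fold changes were -0.05 in card1-1, 0.28 in card1-2 and 0.26 in WT. AOR reduces alkenals, alkenones and other reactive carbonyls of the stroma. It had 224, 168, 183 and 147 CPM in card1-1 with DMBQ, against 158, 156, 185 and 171 CPM in card1-1 mock. It had 203, 189, 195 and 222 CPM in card1-2 with DMBQ, against 208, 222, 232 and 255 CPM in card1-2 mock, and 209.9, 169, 147 and 168 CPM in WT with DMBQ, against 223, 188, 147 and 153 CPM in WT mock. AOR gave the narrowest intervals of the 10 genes, with log2 fold changes of 0.11 in card1-1 (95% interval -0.21 to 0.43), -0.18 in card1-2 (-0.50 to 0.14) and -0.03 in WT (-0.35 to 0.28).

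AER reduces reactive alkenals such as those from lipid peroxidation. It had 34.2, 53.2, 37.5 and 37.5 CPM in card1-1 with DMBQ, against 37.7, 26.6, 66.0 and 28.9 CPM in card1-1 mock. It had 54.4, 39.2, 52.4 and 99.4 CPM in card1-2 with DMBQ, against 31.7, 41.3, 47.5 and 56.3 CPM in card1-2 mock, and 50.2, 59.97, 111 and 82.7 CPM in WT with DMBQ, against 24.8, 45.8, 120.4 and 73.6 CPM in WT mock. The groups overlapped in each genotype. The mock libraries of WT alone spread 4.85-fold, with replicate 3 the highest and replicate 1 the lowest of all 24. The log2 fold changes were 0.04 in card1-1 (95% interval -0.84 to 0.92), 0.47 in card1-2 (-0.39 to 1.33) and 0.19 in WT (-0.64 to 1.02).

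OPR1 acts poorly on the isomer of 12-oxophytodienoic acid used for jasmonate synthesis, which is the task of OPR3, and is known as an electrophile-responsive gene. It had 80.6, 27.0, 66.1 and 48.5 CPM in card1-1 with DMBQ, against 29.8, 20.5, 80.1 and 18.7 CPM in card1-1 mock. It had 58.7, 47.7, 103 and 136 CPM in card1-2 with DMBQ, against 31.7, 39.3, 50.3 and 59.7 CPM in card1-2 mock, and 103, 73.5, 210.0 and 162 CPM in WT with DMBQ, against 46.5, 42.3, 271 and 132 CPM in WT mock. The groups overlapped in each genotype. Log2 fold changes were 0.60 in card1-1 (95% interval -0.68 to 1.88), 0.93 in card1-2 (-0.33 to 2.19) and 0.15 in WT (-1.05 to 1.35), and the WT interval spans more than 2-fold in either direction. Single libraries moved these values, to 1.27 in card1-1 without card1-1 mock replicate 3, and to 0.91 in WT without WT mock replicate 3 or -0.14 without WT mock replicate 2. OPR2, its tandem neighbour, had 11.4, 13.7, 4.08 and 8.82 CPM in card1-1 with DMBQ, against 3.72, 4.33, 4.82 and 5.77 CPM in card1-1 mock. It had 5.44, 6.78, 19.0 and 13.2 CPM in card1-2 with DMBQ, against 4.41, 4.30, 7.92 and 7.28 CPM in card1-2 mock, and 17.1, 4.70, 13.5 and 16.8 CPM in WT with DMBQ, against 3.37, 10.8, 20.2 and 5.03 CPM in WT mock. The log2 fold changes of OPR2 were 1.03 in card1-1 (95% interval -0.03 to 2.09), 0.86 in card1-2 (-0.18 to 1.91) and 0.37 in WT (-0.60 to 1.34), with edgeR adjusted p-values of 0.241, 0.451 and 1.00 in that order. Without WT mock replicate 3 the OPR2 value in WT was 0.99, and without WT mock replicate 1 it was 0.09.

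The second question is whether the responses or the levels of these genes differed between the mutants and WT. For the difference of responses, edgeR called 0 of the 10 genes in card1-1 minus WT (0 with an unadjusted p under 0.05, smallest adjusted p 0.695), against 0.0564% of all genes. It called 0 in card1-2 minus WT (2 with an unadjusted p under 0.05, NQR and AT5G58800, smallest adjusted p 0.508), against 0.0282% of all genes. It called 0 in the mean of both mutants minus WT (0 with an unadjusted p under 0.05, smallest adjusted p 0.762), against 0.062% of all genes. DESeq2 and limma voom called 0 in these 3 contrasts. For levels with DMBQ, edgeR called 0 in card1-1 against WT (2 with an unadjusted p under 0.05, OPR1 and AER), against 0.801% of all genes, and DESeq2 and limma voom called 0. It called 0 in card1-2 against WT (2 with an unadjusted p under 0.05, NQR and AT4G36750), against 0.789% of all genes, and DESeq2 called 1 (and 2.19% of all genes) and limma voom 0. For mock levels, edgeR called 0 in card1-1 against WT (3 with an unadjusted p under 0.05, OPR1, OPR2 and AT4G36750), against 0.0% of all genes. It called 0 in card1-2 against WT in mock (2 with an unadjusted p under 0.05, AOR and OPR1), against 0.0226% of all genes. DESeq2 and limma voom also called 0 in both mock contrasts.

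NQR and AT4G36750 were the members whose libraries separated a mutant from WT. With DMBQ, NQR had 24.9 to 41.6 CPM in card1-2 and 13.5 to 20.3 CPM in WT, a log2 difference of 0.87 (95% interval 0.30 to 1.43, edgeR adjusted p 0.113, DESeq2 adjusted p 0.0290). AT4G36750 had 23.5 to 36.9 CPM in card1-2 with DMBQ and 40.1 to 51.7 CPM in WT with DMBQ, a log2 difference of -0.56 (95% interval -1.03 to -0.09, edgeR adjusted p 0.257). Groups without overlap were thus seen for 1 of 10 genes on the higher side, against 3.32% of all genes, and for 1 of 10 on the lower side, against 3.62%. In card1-1 with DMBQ the log2 differences from WT were -0.33 for NQR and -0.03 for AT4G36750. Without replicate 2 of card1-2 with DMBQ the NQR difference was 0.66, with an edgeR adjusted p of 0.356.

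In mock, OPR1 had the largest fitted differences from WT among the 10 genes. Its log2 difference was -1.74 in card1-1 (SE 0.60, 95% interval -3.01 to -0.48, unadjusted p 0.00938) and -1.45 in card1-2 (-2.70 to -0.19, unadjusted p 0.0257), each with an edgeR adjusted p of 1.00. Both contrasts use the same 4 WT mock libraries, of which replicates 3 and 4 had 271 and 132 CPM and replicates 1 and 2 had 46.5 and 42.3 CPM. Replicates 1 and 2 lay inside the range of the mutants' mock libraries. Without WT mock replicate 3 the differences were -0.99 in card1-1 and -0.69 in card1-2, and without card1-1 mock replicate 3 the card1-1 difference was -2.41. OPR2 followed with -1.11 in card1-1 mock, which became -0.49 without WT mock replicate 3. AER had -0.75 there, which became -0.27 without that WT library. With DMBQ, the log2 difference of OPR1 was -1.30 in card1-1 (95% interval -2.54 to -0.05) and -0.67 in card1-2 (-1.89 to 0.54), and that of AER was -0.90 in card1-1 (-1.77 to -0.03) and -0.31 in card1-2 (-1.15 to 0.54). The edgeR adjusted p of OPR1 and AER in card1-1 with DMBQ were 0.364 and 0.362. AOR in card1-2 mock was 0.37 above WT mock on the log2 scale (95% interval 0.05 to 0.68, edgeR adjusted p 1.00).

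**Figure D3:**
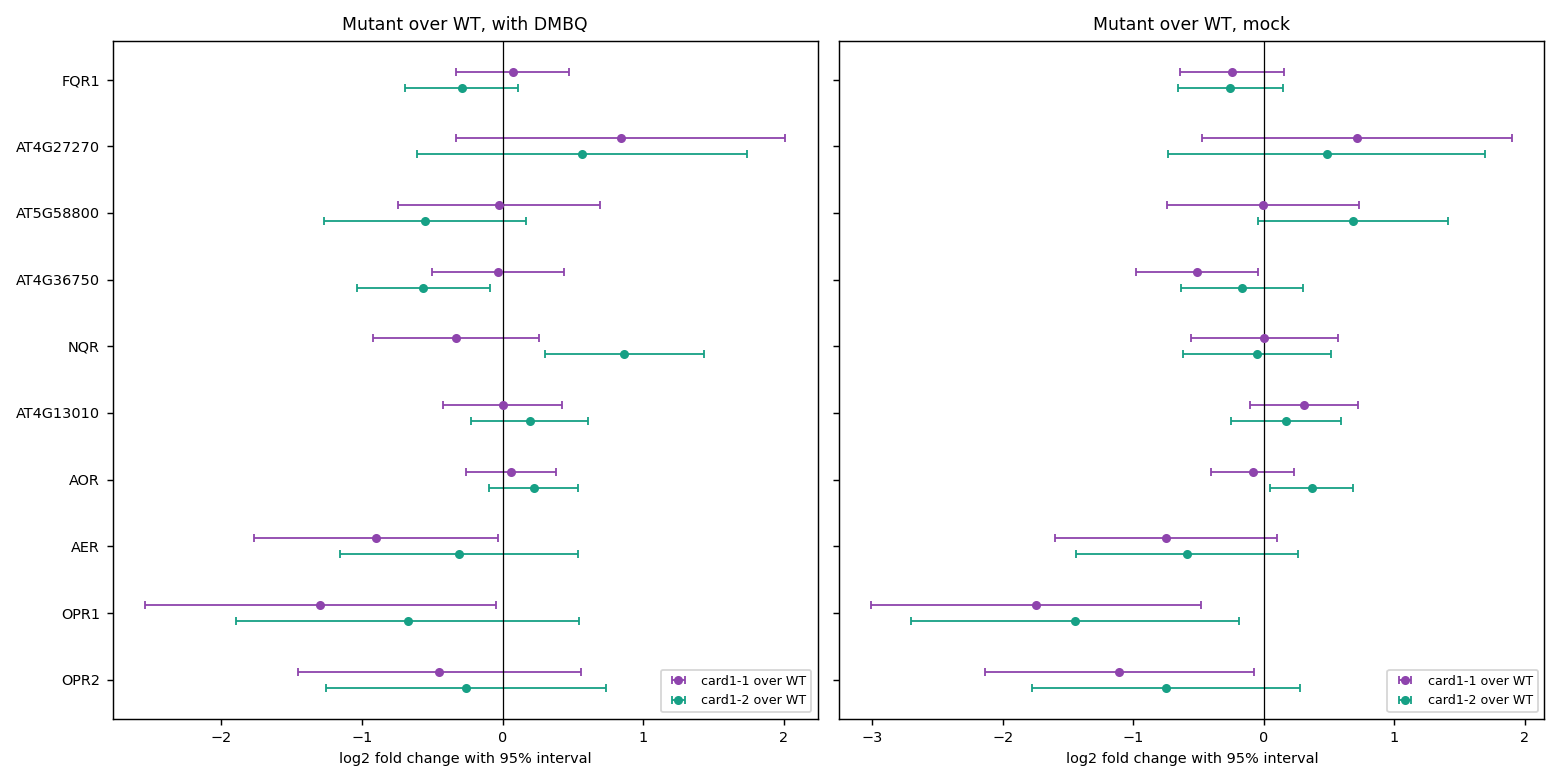
Log2 fold change of card1-1 and card1-2 over WT with 95% intervals, with DMBQ (left) and in mock (right), from edgeR's fit. OPR1 has the lowest estimates in mock, -1.74 in card1-1 and -1.45 in card1-2, with wide intervals, and NQR in card1-2 with DMBQ lies at 0.87.

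FQR1 and AT4G27270 sit in gene blocks that resemble each other, with a calcium-binding protein gene on one side and a GH3 auxin-conjugating enzyme gene on the other. Beside FQR1 lies PBP1, a calcium-binding protein that interacts with the kinase PINOID, on the same strand with a gap of 2267 bases, and on the other side DFL1 (GH3.6), with a gap of 4345 bases. Beside AT4G27270 lies AT4G27280, an EF-hand gene on the same strand with a gap of 43 bases, and on the other side WES1 (GH3.5), with a gap of 4915 bases. Coding identity was 80.2% between PBP1 and AT4G27280 and 84.1% between DFL1 and WES1. PBP1 averaged 19.6 ± 10.5 CPM in card1-1 with DMBQ and 2.48 ± 1.22 CPM in card1-1 mock, 14.3 ± 6.98 CPM in card1-2 with DMBQ and 2.52 ± 0.602 CPM in card1-2 mock, and 13.3 ± 6.53 CPM in WT with DMBQ and 2.46 ± 0.683 CPM in WT mock (SD, n = 4). It rose in each genotype, by log2 fold changes of 3.01, 2.47 and 2.44 in card1-1, card1-2 and WT, with edgeR adjusted p-values of 0.000151, 0.00351 and 0.00177. AT4G27280 averaged 63.8 ± 30.0 CPM in card1-1 with DMBQ and 12.5 ± 7.42 CPM in card1-1 mock, 67.4 ± 28.5 CPM in card1-2 with DMBQ and 11.3 ± 5.75 CPM in card1-2 mock, and 89.9 ± 28.6 CPM in WT with DMBQ and 9.89 ± 3.46 CPM in WT mock (SD, n = 4).

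AT4G27280 rose in each genotype too, by 2.38, 2.59 and 3.19 on the log2 scale in card1-1, card1-2 and WT, with edgeR adjusted p-values of 0.00163, 0.00203 and 8.8e-05. With the multi-mapping share as a covariate, the card1-1 values were 2.26 for PBP1 (adjusted p 0.215) and 1.53 for AT4G27280 (adjusted p 0.333). With limma voom, PBP1 in card1-2 was 2.168 with an adjusted p of 0.0939. In the same fit FQR1 and AT4G27270 were not called in any genotype. DFL1 and WES1 were not called either, with log2 fold changes in WT of -0.01 and -0.10, in card1-1 of -0.23 and -0.16 and in card1-2 of -0.42 and 0.26. AT4G27280, read on the same strand, ends 43 bases before the start of AT4G27270. Of the other neighbours, MHK, a kinase gene 234 bases beyond AT4G13010, fell in card1-1, with 39.0 ± 13.9 CPM with DMBQ and 74.9 ± 10.7 CPM in mock (SD, n = 4, log2 fold change -0.94, edgeR adjusted p 0.00533).

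**Figure D4:**
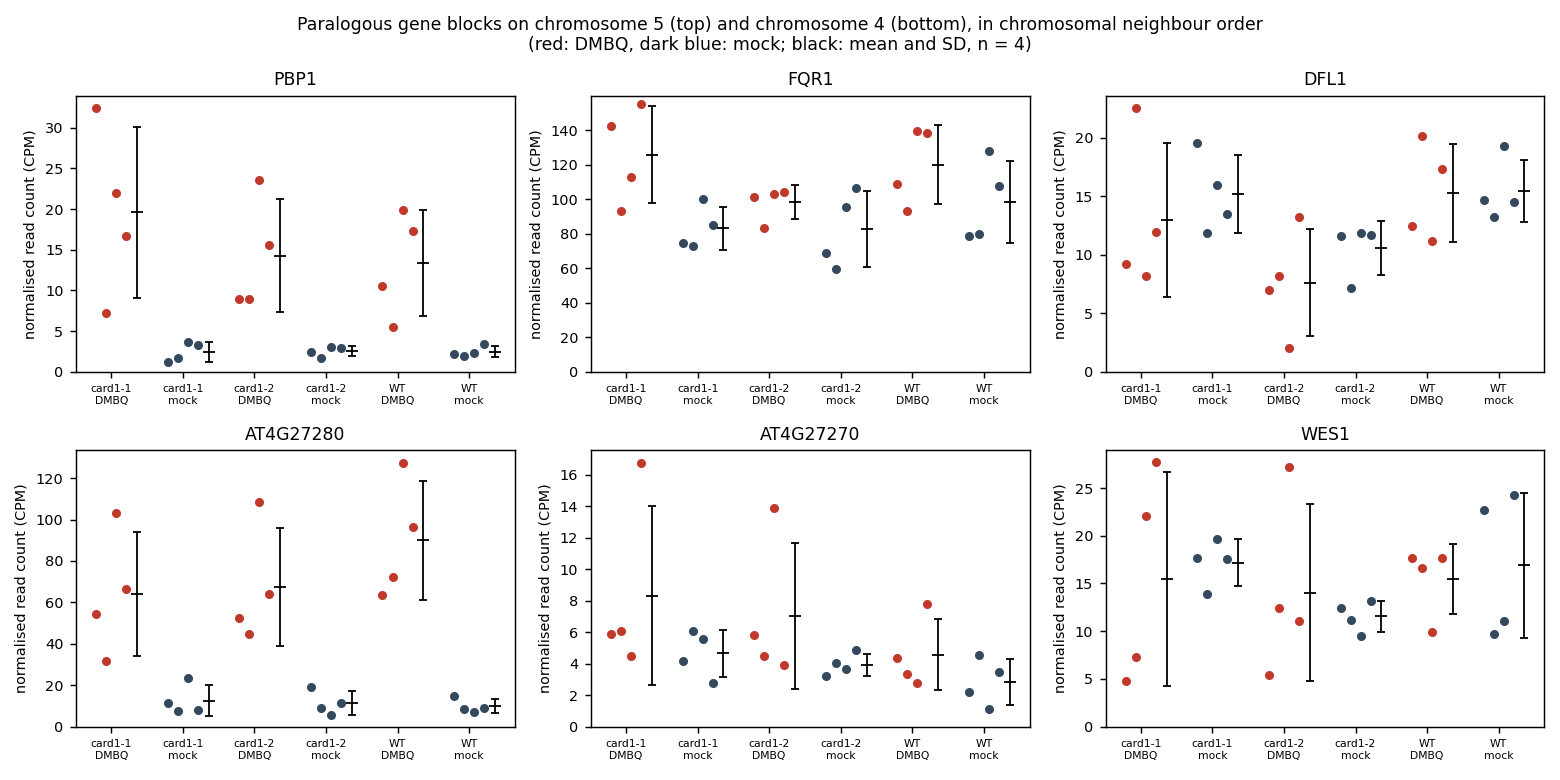
Normalised read counts (CPM) in the 24 libraries of the gene blocks around FQR1 (top) and AT4G27270 (bottom), with the EF-hand gene on the left, the quinone reductase in the middle and the GH3 gene on the right. Red points are DMBQ and dark blue points mock libraries, black bars mean and SD. All DMBQ libraries of PBP1 and AT4G27280 lie above the mock libraries of their genotype, and those of the other 4 genes overlap them.

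Within groups, OPR1 varied with FQR1 and with AER from library to library. As log2 deviations from the group mean over 24 libraries, FQR1 and OPR1 had a Pearson r of 0.77 and a Spearman rho of 0.79, each with a permutation p of 5e-05 and an adjusted p of 0.00225 over the 45 pairs of members. AER and OPR1 had a Pearson r of 0.78 (permutation p 0.00072, adjusted 0.0162) and a Spearman rho of 0.72 (permutation p 0.00237, adjusted 0.0533). Leaving out the 2 libraries farthest from the median of the first gene named, r was 0.79 for FQR1 and OPR1 and 0.70 for AER and OPR1. FQR1 and AER had an r of 0.59 (permutation p 0.00553, adjusted 0.0768). OPR1 and OPR2, the tandem pair, had an r of 0.41 (permutation p 0.128, adjusted 0.624), lower than that of OPR1 with either unlinked gene. That difference between coefficients was not tested. The permutations shuffled libraries within groups across replicate numbers, so these p-values do not take a shared number into account.

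The deviations went with the replicate number of the labels. Number 3 of OPR1 was above its group mean in 6 of 6 groups, by 0.76 on average on the log2 scale, and number 2 was below it in 6 of 6, by -0.71 on average. For FQR1, number 4 was above the group mean in 6 of 6 groups and number 2 in 0 of 6. With the means of both group and number removed, r was 0.51 for FQR1 and OPR1, 0.73 for AER and OPR1 and 0.38 for FQR1 and AER. The labels do not say what a number shared between groups stands for.

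**Figure D5:**
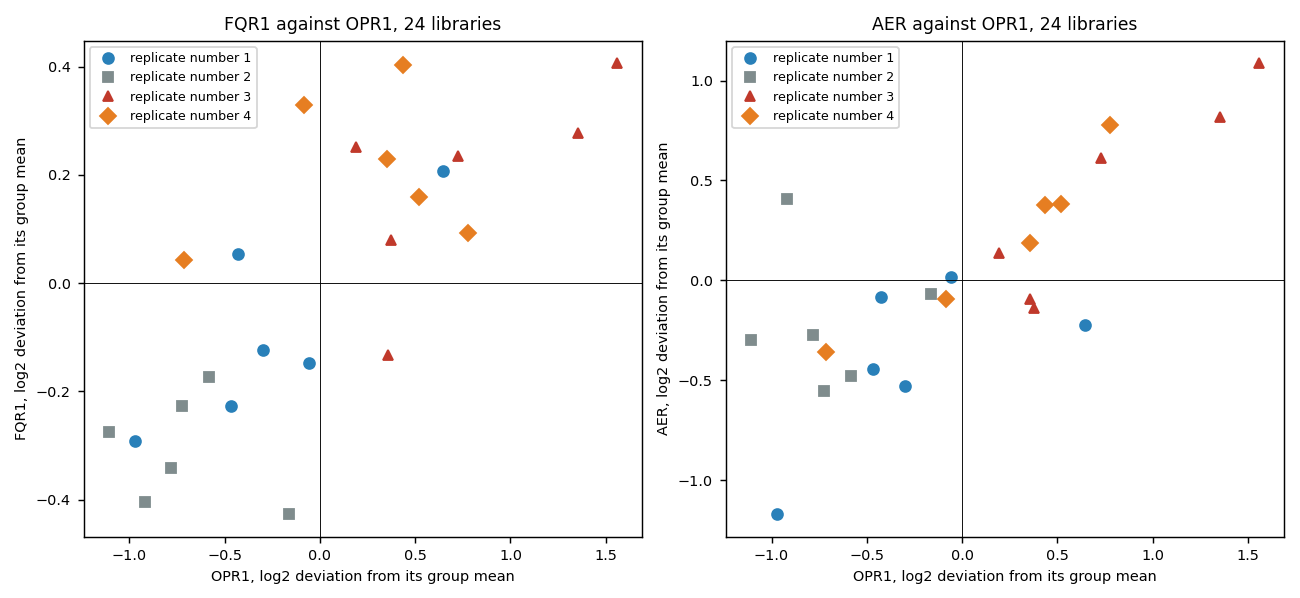
Log2 deviation of FQR1 (left) and AER (right) from their group means against that of OPR1, 24 libraries each, marked by replicate number. Libraries of number 2 lie on the negative side of the OPR1 axis and those of number 3 on the positive side, with r = 0.77 on the left and r = 0.78 on the right.

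Genes with the most similar profiles were sought among 14675 genes with a mean of at least 5 CPM, by Pearson correlation of log2 CPM over the 24 libraries. For OPR1 they were UGT75B1 (r = 0.91), AT4G08555 (0.91) and UGT87A2 (0.89), and for AER UGT87A2 (0.90), AT4G01870 (0.89) and CYP81D11 (0.86). UGT75B1 and UGT87A2 encode glycosyltransferases and CYP81D11 a cytochrome P450 known to be induced by xenobiotics. CYP81D11 had 5.06, 8.39, 89.6 and 32.4 CPM in WT mock, with the same replicates 3 and 4 high as OPR1 and AER. For FQR1 the nearest were the heat shock factor gene HSFA8 (0.79), AT1G67870 (0.78) and AT5G04760 (0.78), and for AOR CHLI1 (0.77), a magnesium chelatase subunit of chlorophyll synthesis, AT5G55070 (0.72) and AT2G35760 (0.70). These values describe likeness over libraries that share groups and replicate numbers.

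Other reductases and the wider detoxification pathway gave few calls. Of 10 homologues of AER, 5 had enough counts for the test, and of the 4 further OPR genes only OPR3, the enzyme of jasmonate synthesis, did. None of these 6 was called in any of the 10 comparisons by edgeR, and OPR3 had a log2 fold change with DMBQ of 0.36 in card1-1, 0.63 in card1-2 and -0.07 in WT. None of 4 other zeta-crystallin type genes, 5 tested NAD(P)H dehydrogenases of mitochondria and plastids and 3 tested aldo-keto reductases was called. Of 8 reductases of oxidised ascorbate, 1 fell, MDAR4, a peroxisomal monodehydroascorbate reductase, with 141 ± 14.1 CPM in card1-1 with DMBQ and 228 ± 56.6 CPM in card1-1 mock (SD, n = 4, log2 fold change -0.70, edgeR adjusted p 0.00313), against 6.7% of all genes called in card1-1. Of 7 TGA factor and glutathione genes, 1 fell, GSH1, the enzyme of the first step of glutathione synthesis, with 198 ± 14.8 CPM in card1-2 with DMBQ and 292 ± 23.7 CPM in card1-2 mock (SD, n = 4, log2 fold change -0.56, edgeR adjusted p 0.00956), against 2.2% of all genes called in card1-2.

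Of 9 tested electrophile-induced detoxification genes, 1 rose with DMBQ, the glutathione transferase GSTF8, with 117 ± 27.0 CPM in card1-1 with DMBQ and 72.9 ± 21.6 CPM in card1-1 mock (SD, n = 4, log2 fold change 0.69, edgeR adjusted p 0.0232), against the same 6.7% of all genes. Their median log2 fold change was 0.57 in card1-1, 0.43 in card1-2 and 0.55 in WT, against -0.0045, 0.02 and -0.01 for all genes. In mock, 0 of these 9 were above 0 in card1-1 against WT, with a median of -1.07, and 2 of 9 in card1-2 against WT, with a median of -0.58, against 0.02 and 0.01 for all genes. None of those differences was called. Both contrasts share the 4 WT mock libraries, and without WT mock replicate 3 the medians were -0.57 in card1-1 and -0.18 in card1-2. Without WT mock replicate 2 the card1-2 median was -0.88. With DMBQ, 1 of these 9 was above 0 in card1-1 against WT, with a median of -1.01. In card1-2 against WT with DMBQ it was also 1 of 9, with a median of -0.655. The medians for all genes were 0.0012 and 0.0015, and 0 of the 9 were called in either contrast. The card1-1 calls of MDAR4 (-0.43, adjusted p 0.542) and GSTF8 (1.00, adjusted p 0.137) were lost with the multi-mapping share as a covariate. The card1-2 call of GSH1 was lost with offsets for GC content and length (-0.37, adjusted p 0.176). GSTF8 was also not called without card1-1 mock replicate 1, 2 or 4 or card1-1 DMBQ replicate 3, with log2 fold changes of 0.55 to 0.68. Fitted to the 2 groups of each comparison alone, none of GSTF8, MDAR4, GSH1 and MHK was called, with adjusted p-values of 0.0614 to 0.124.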

How the data were processed

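RNA and libraries were prepared by a published method (Townsley and colleagues), per the labels' protocols. Per the submitters' processing notes, which give no roles, the tools were CASAVA, bcl2fastq 2.17, TopHat, TopHat2 2.1.1 and HTSeq 0.6.1 and the build was TAIR10. Which annotation, strand setting and overlap mode were used is not given in the sources used here. The table deposited by the authors gives read counts per gene and library, not normalized. It was recorded as estimated counts because a line of fractions shares its columns, and every gene value is a whole deposited count. Library sizes and tests left out 9 lines without a gene name. One of these tallies alignments that were not unique, 17.3% to 66.5% of records, and is used as the multi-mapping share. Across replicate pairs, chi-square per degree of freedom was 3.78 to 29.2 (1 marks sampling noise), so no libraries were merged.

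Genes were filtered with filterByExpr (minimum count 10, total 15), which kept 17734 of 33602, and scaled by TMM. Tests used edgeR 4.0.16 (quasi-likelihood, robust, two-sided) in R 4.3.3 over all 24 libraries, with 1 term per group and no block. Benjamini-Hochberg adjustment ran over all genes within each of 10 comparisons, at a threshold of 0.05. Intervals use 18 residual degrees of freedom and the SE of the fit. The p-values come from the test and not from these intervals. An interval can thus include 0 where the unadjusted p is under 0.05, as for OPR2 with DMBQ in card1-1. CPM are TMM-scaled. DESeq2 1.42.0, limma 3.58.1 (voom) and other settings, 36 in all, were alternatives. The script was first tested on simulated data. Within-group correlations were tested by 100000 permutations within groups. The TAIR10.1 annotation matched 32835 genes by AGI code.

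All 10 genes and CARD1 are named. Genes of related lists are named where called, chromosomal neighbours where called or overlapping, and the 3 genes most alike for FQR1, AER, AOR and OPR1. DFL1, WES1, AT5G16980 and OPR3, which fall outside this rule, were chosen after their values were seen. The members and lists were chosen with earlier results of these data known.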

Additional observations from a re-analysis of the deposited data

Results flagged for a closer look

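Of 60 sets of 4 libraries (10 genes in 6 groups), 3 held a library whose gap to its nearest neighbour exceeded Dixon's 95% critical value as a share of the range of its group, which chance passes in about 1 set in 20. FQR1 had 83.4 CPM in replicate 2 of card1-2 with DMBQ, below the other 3 libraries at 101 to 104 CPM. AT4G27270 had 16.8 CPM in replicate 4 of card1-1 with DMBQ, above the others at 4.49 to 6.05 CPM. AT4G13010 had 50.1 CPM in replicate 4 of card1-2 with DMBQ, below the others at 70.7 to 72.4 CPM. Replicate 2 of card1-2 with DMBQ is the deepest library, and replicate 4 of card1-1 with DMBQ has the highest multi-mapping share, 66.5%.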

How the results depend on the processing

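The number of the 10 genes called stayed at 0 in 7 of the 10 comparisons under all 36 alternatives. In card1-1 with DMBQ against mock it was 2 with DESeq2, with RLE size factors and with the replicate block, 1 without the libraries above 55% multi-mapping, 1 with the replicate block plus GC and length offsets, and 0 to 2 when 1 library was left out. Over all 17734 genes, higher and lower calls there were 842 and 695 with DESeq2 and 671 and 499 with RLE size factors. They were 703 and 656 with the block, and 765 and 261 with the block plus offsets. Without the libraries above 55% they were 351 and 370 of 18397 genes. With 1 library left out they ran from 334 and 282 to 700 and 643. The members called were FQR1, AT4G36750 and, without the libraries above 55% or without card1-1 DMBQ replicate 4, AT5G58800. FQR1 was called under 10 of 36 alternatives (log2 fold change 0.27 to 0.72, adjusted p 0.0128 to 0.819) and AT4G36750 under 9 (0.27 to 0.80, adjusted p 0.0251 to 0.857). DESeq2 called 1 gene, NQR, in card1-2 with DMBQ against mock (and 3.51% of all genes) and 1, NQR again, in card1-2 against WT with DMBQ (and 2.19%). The cause of these shifts was not tested. The replicate block was an alternative only, since the labels do not say what a number marks and libraries of one number correlated at -0.059 to 0.235 across groups, although 18 of 24 correlated best with their own number. With it the adjusted p in card1-1 was 0.0128 for FQR1 and 0.0477 for AT4G36750. No direction of a called gene reversed. Total counts alone moved the median of all genes by -0.11 in card1-2 against WT with DMBQ. GC and length offsets gave 662 higher and 218 lower calls over all genes in card1-1, against 629 and 560 in the fit reported. The lowest counts were those of AT4G27270, with 7 to 38 reads per library, and of OPR2, with 10 to 142. The medians of the electrophile-induced genes in mock with 1 library left out were chosen after seeing the data.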
